A study of Homo sapiens with 8 samples.

Results

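The 33 genes described here encode the integrins and the proteins of the focal adhesion in MDA-MB-231 cells, a human triple-negative breast cancer line of mesenchymal character. They were chosen by name from the 16383 genes of the deposited count table: all protein-coding integrin genes listed there, which were 9 alpha and 6 beta subunits, and 18 named focal adhesion genes. Of the 33, 31 were also in the FPKM table, and ITGA7 and TNS1 had counts only. The other integrin subunits were not analysed here.

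Cells were grown with fetal bovine serum and exposed for 24 h either to 5 µM c-di-GMP or to phosphate-buffered saline as vehicle. Bacteria use c-di-GMP, a cyclic dinucleotide, as a second messenger, and mammalian STING binds it. RNA from 4 vehicle and 4 c-di-GMP libraries was sequenced, all from this 1 line without genetic change named in the labels. Separate cultures are not named in the labels. The p-values therefore set group differences against the variation between these libraries, which may be technical variation only.

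Integrins are heterodimers of 1 alpha and 1 beta subunit that span the membrane and hold the cell to collagen, laminin, fibronectin or vitronectin outside. Inside, talin and kindlin bind the beta tail and switch the receptor on, while vinculin, alpha-actinin, tensin and zyxin tie it to actin. Focal adhesion kinase, Src, paxillin and p130Cas are recruited to the same plaque and signal from it. In breast cancer cells this machinery is known for its part in adhesion, spreading and migration.

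The libraries held 16151360 to 18040010 counts, and 3 counts were worth 0.166 to 0.186 CPM (a count scaled by the total of its library). One library, vehicle 3, was unlike the rest. Over genes its log2 CPM correlated with that of the others at r = 0.867 to 0.883, against at least 0.991 among the others, and 465 listed genes had no count in it, against 2 to 9. Genes of the lowest quartile of length took 28.4% of its counts (13.8 to 15.6% elsewhere) and genes of the highest quartile 19.0% (34.6 to 36.5%). The counts of vehicle 3 summed to 145.6% of the library total implied by its FPKM values, against 92.4 to 94.4% elsewhere. No pair of libraries held the same values. The 3 other vehicle libraries were not equally close by a chi-square of the counts of each gene, averaged over genes. It was 7.22 between vehicle 1 and 2 and 4.48 between vehicle 1 and 4. Against the c-di-GMP libraries it was 18.55 to 21.42 for vehicle 1, 5.82 to 7.18 for vehicle 2 and 8.96 to 10.54 for vehicle 4. Markers of the line were high in the 7 other libraries (VIM 607 to 766, CD44 795 to 838 and AXL 1065 to 1255 CPM). Of the epithelial markers, CDH1 stood at 1.87 to 3.88, EPCAM at 11.1 to 14.99, KRT8 at 655 to 698 and KRT18 at 248 to 279 CPM. Of the receptor genes, ERBB2 stood at 82.44 to 109.2 CPM in the same 7 libraries. Vehicle 3 lay above these ranges for VIM (2196), CD44 (1042), EPCAM (58.79), KRT8 (1564) and KRT18 (650.3 CPM). It lay below them for AXL (414.4), CDH1 (1.608) and ERBB2 (71.03 CPM). ESR1, PGR, the leukocyte markers PTPRC and CD3E, the endothelial marker VWF and the fibroblast markers DCN and PDGFRA were not listed in the table. Other markers of those cell types were listed at low levels in the 7 libraries without vehicle 3. CD14 stood at 10.2 to 16.6, LYZ at 0.427 to 0.859 and PECAM1 at 8.00 to 9.66 CPM. CDH5 stood at 0.104 to 1.83, COL1A1 at 15.8 to 21.5 and COL1A2 at 2.22 to 3.58 CPM. Results are given for all 8 libraries and for 7 without vehicle 3. Levels are CPM scaled by TMM over all 8 libraries and fold changes are c-di-GMP over vehicle on the log2 scale, tested with edgeR's quasi-likelihood test and Benjamini-Hochberg adjustment over all genes.

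The 250 bases before the most upstream RefSeq start are shown for ITGB5 and NEDD9, which fell with c-di-GMP with and without a correction for GC content used below. Of the 8 genes called in both ways, 6 had a listed promoter, and these 2 were the ones whose stretch overlapped no exon of GENCODE v29. The sequences are RefSeq's on GRCh38.p14, 5′ to 3′ on the strand of the gene. Capitals mark the GC box GGGCGG on either strand, the core of sites that Sp-family factors bind. Both genes lie on the minus strand, with ITGB5's stretch at chr3:124901419-124901668 and NEDD9's at chr6:11382349-11382598, and each has 3 listed starts.
ITGB5: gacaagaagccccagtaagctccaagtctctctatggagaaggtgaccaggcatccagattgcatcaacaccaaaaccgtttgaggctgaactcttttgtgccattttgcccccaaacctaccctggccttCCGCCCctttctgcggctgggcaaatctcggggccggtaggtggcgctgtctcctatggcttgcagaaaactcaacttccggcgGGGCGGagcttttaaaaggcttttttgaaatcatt
NEDD9: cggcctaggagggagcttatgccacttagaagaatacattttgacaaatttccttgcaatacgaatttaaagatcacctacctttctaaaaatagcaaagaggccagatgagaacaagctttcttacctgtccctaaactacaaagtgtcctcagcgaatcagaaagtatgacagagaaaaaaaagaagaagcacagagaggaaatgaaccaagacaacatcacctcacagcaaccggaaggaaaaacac
The ITGB5 stretch held 2 GC boxes at a GC content of 52.8%, and the NEDD9 stretch held 0 at 40.4%. Promoters were listed for 25 of the 33 genes, 52 in all. GGGCGG was found in 55.8% of them (29 of 52) and in 42.6% of all 35116 listed promoters. TGANTCA, the site of AP-1 factors, was in 5.77% and 6.57%, and the CArG box that serum response factor binds in 1.92% and 1.16%. A match describes the letters only.

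With all 8 libraries none of the 33 genes passed the threshold of adjusted p under 0.05 in edgeR, and their adjusted p ranged from 0.623 to 0.999. In that fit 0.0% of 15415 genes were called (0 genes), 960 had an unadjusted p under 0.05 (6.23%), 1 of them an integrin or focal adhesion gene, and 122 genes passed in DESeq2 and 0 in limma-voom, none of the 33 in either. The biological coefficient of variation was 36.3% with vehicle 3 and 4.52% without it.

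Without vehicle 3, 4 of the 33 genes rose with c-di-GMP and 14 fell, beside 29.6% of all 15647 genes tested that were called (13.5% higher and 16.2% lower). The genes that rose were ITGB1, CAV1, FERMT2 and ITGAE, and those that fell were ITGA3, ITGA5, ITGB2, ITGB4, ITGB5, TLN1, ACTN1, ACTN4, TNS3, ZYX, BCAR1, SRC, PXN and NEDD9. No change was larger than 0.42 on the log2 scale among these 18. The mean level was at least 20 CPM in 27 of the 33, and among all genes of at least 20 CPM the share called was 45.3% (23.2% higher and 22.2% lower). The vehicle and c-di-GMP values did not overlap for 19 of the 33 genes, beside 35.7% of all genes. In bulk RNA, fewer cells with a transcript and less of it per cell cannot be told apart.

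Fold changes in these 7 libraries went with the GC content of the transcript. Over the 33 genes Spearman's rho between GC content and log2 fold change was -0.72, and over 15643 genes it was -0.59, given as a description since genes share libraries and base composition. Of the 19 genes above 50% GC, 12 fell and 1 rose, and of the 14 below it 2 fell and 3 rose. That direction held over all genes too, whose median was -0.28 between 60 and 65% GC and 0.13 between 35 and 40%. The shares of all genes called on each side of 50% were not counted. Each comparison was therefore repeated with a smooth trend of each library on GC content taken out, which brought rho over the 33 genes to -0.13. In that fit 2 of the 33 rose (CAV1 and ITGAE) and 6 fell (ITGA5, ITGB4, ITGB5, ACTN1, SRC and NEDD9), beside 15.2% of all genes called (8.58% higher and 6.62% lower, and 25.3% of genes of at least 20 CPM). The same 8 were called when a trend on length was taken out as well. The median over the 33 genes was -0.17 without correction and -0.06 with it, beside 0.00 over all genes in both fits. What made the fold changes move with GC content was not tested.

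**Figure D1:**
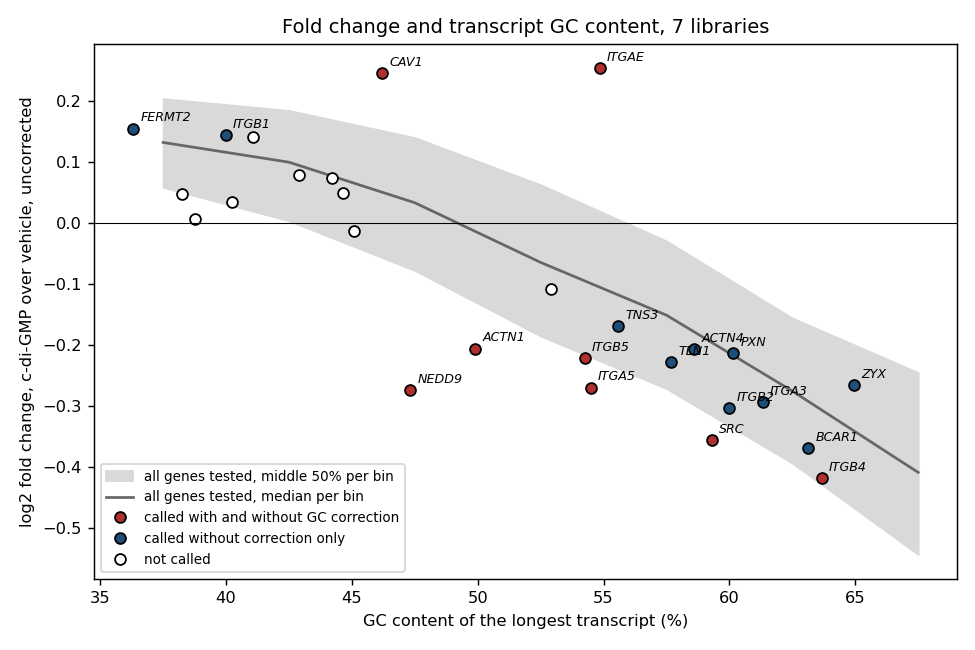
Log2 fold change (c-di-GMP over vehicle, 7 libraries, uncorrected) against GC content of the longest transcript in percent for the 27 genes with values in the text; the grey line and band are the median and middle 50% of all genes in bins of GC content. FERMT2 and ITGB1 lie at low GC and above 0, ITGB4 and BCAR1 at high GC and below it, and of the called genes CAV1 and ITGAE lie above the band and NEDD9, ACTN1, ITGA5, ITGB5 and SRC under it.

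Among the integrin alpha subunits, ITGA5 fell and ITGAE rose in both fits, ITGA3 fell only before the GC trend was taken out, and ITGA1, ITGA2, ITGA6 and ITGAV passed in neither. ITGA5, the alpha 5 chain of the classical fibronectin receptor, stood at 293.3, 254.9 and 276.0 CPM in vehicle 1, 2 and 4 and at 229.7, 229.9, 228.2 and 225.5 CPM after c-di-GMP. All 4 treated libraries lay below all 3 vehicle libraries and close to each other, and vehicle 3 was at 105.2 CPM. The log2 fold change was -0.27 (SE 0.04, adjusted p = 7.67e-05 in edgeR) and -0.18 with the GC trend taken out (SE 0.03, adjusted p = 0.000514).

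ITGA3, the alpha 3 chain of a laminin receptor, was the most abundant alpha subunit per length, at 141 ± 11.3 FPKM in the 3 vehicle libraries (SD, n = 3). Its counts gave 1519, 1299 and 1377 CPM in vehicle and 1162, 1150, 1146 and 1113 CPM after c-di-GMP, with no overlap, and 556 CPM in vehicle 3. The fold change was -0.29 (SE 0.05, adjusted p = 4.2e-05 in edgeR) without correction and -0.05 (SE 0.03, adjusted p = 0.314) with the GC trend taken out. Its transcript has 61.3% GC. ITGA6, the alpha 6 chain that pairs with beta 1 or beta 4 on laminin, was at 506, 537.6 and 544.9 CPM in vehicle and at 550.7, 554.7, 569.0 and 565.6 CPM after c-di-GMP. Those groups did not overlap, but the difference of 0.08 did not pass (adjusted p = 0.156, edgeR, 95% interval -0.0016 to 0.16), and at 610.1 CPM vehicle 3 was above all of them.

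The collagen-binding subunit ITGA2 was at 338.3, 349.8 and 369.1 CPM in vehicle and at 354.7, 390.9, 344.0 and 356.6 CPM after c-di-GMP, and the groups overlapped. Its difference was 0.03, with a 95% interval of -0.06 to 0.12. ITGA1, the other collagen-binding chain above 20 CPM, was at 49.97, 56.7 and 58.2 against 54.3, 56.1, 53.6 and 57.1 CPM, a difference of 0.01 with an interval of -0.10 to 0.12. ITGAV, the alpha v chain that binds vitronectin and other RGD proteins, was at 127.7, 133 and 137.4 against 131.2, 137.7, 138.2 and 142.8 CPM, a difference of 0.05 with an interval of -0.04 to 0.13. None of these 3 passed in either fit. With the GC trend taken out their differences were below 0, at -0.08 for ITGA2 (adjusted p = 0.145 in edgeR, interval -0.15 to -0.01), -0.12 for ITGA1 (adjusted p = 0.0751, interval -0.21 to -0.03) and -0.08 for ITGAV (adjusted p = 0.128, interval -0.15 to -0.01). Without c-di-GMP 2 the corrected value of ITGA2 passed (-0.12, adjusted p = 0.00831). In vehicle 3 they stood at 134.5, 24.6 and 115.3 CPM.

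ITGAE, the alpha E chain known from epithelial-resident lymphocytes, was low, at 19.4, 22.7 and 22.7 CPM in vehicle and 27.0, 22.4, 27.8 and 26.0 CPM after c-di-GMP. The lowest treated library lay inside the vehicle range, so the groups overlapped. The fold change was 0.25 (SE 0.08, adjusted p = 0.0149 in edgeR) and 0.35 (SE 0.08, adjusted p = 0.00255) with the GC trend taken out. The uncorrected call was lost without vehicle 1 (0.18, adjusted p = 0.0875), without c-di-GMP 1 (adjusted p = 0.0571) or without c-di-GMP 3 (adjusted p = 0.0629). Vehicle 3 held 188.9 CPM of it, 8.75 times the mean of the other vehicle libraries, and with vehicle 3 in the fit the fold change was -1.29 (adjusted p = 0.623). Of its exon bases 7.59% are shared with other genes, among them HASPIN on the opposite strand, and of the leukocyte markers PTPRC and CD3E were not listed, while CD14 stood at 10.2 to 16.6 CPM without vehicle 3 and at up to 30.8 CPM with it.

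Of the beta subunits, ITGB4 and ITGB5 fell in both fits, ITGB2 fell and ITGB1 rose before correction only. ITGB1, the beta 1 chain shared by the collagen, laminin and fibronectin receptors, was at 1268, 1352 and 1322 CPM in vehicle and at 1443, 1440, 1458 and 1478 CPM after c-di-GMP. Each treated library exceeded each of these vehicle libraries, and vehicle 3 was at 320.5 CPM. The fold change was 0.14 (SE 0.04, adjusted p = 0.00853 in edgeR), and 0.03 (SE 0.03, adjusted p = 0.646) with the GC trend taken out. The first value lost its call without c-di-GMP 4 (0.13, adjusted p = 0.0531). Its transcript has 40.0% GC.

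ITGB4, whose long cytoplasmic tail anchors hemidesmosomes to keratin, had the largest drop of the 33 genes among those called. It was at 290.3, 250.9 and 266.9 CPM in vehicle and 200.1, 206.2, 203.3 and 198.9 CPM after c-di-GMP, and every treated library was far below every one of these vehicle libraries. The fold change was -0.42 (SE 0.05, adjusted p = 4.87e-07 in edgeR) without correction and -0.11 (SE 0.03, adjusted p = 0.0206) with it. That corrected call was lost on leaving out vehicle 4 (-0.09, adjusted p = 0.124), c-di-GMP 1 (adjusted p = 0.0803), c-di-GMP 3 (adjusted p = 0.0537) or c-di-GMP 4 (adjusted p = 0.064). The transcript has 63.7% GC, and vehicle 3 held 92.6 CPM.

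ITGB5, a partner of alpha v in the vitronectin receptor, was at 233.3, 211.8 and 221.2 CPM in vehicle and at 191.6, 188.8, 192.9 and 190.2 CPM after c-di-GMP. The treated libraries lay close together and below the vehicle libraries, and vehicle 3 was lower than both at 82.1 CPM. The fold change was -0.22 (SE 0.04, adjusted p = 0.000325 in edgeR), and -0.14 (SE 0.03, adjusted p = 0.00372) with the GC trend taken out. ITGB2, the beta 2 chain of leukocyte integrins, was at 42.4, 36.6 and 38.7 against 33.4, 31.0, 30.8 and 32.3 CPM, without overlap. It changed by -0.30 (SE 0.06, adjusted p = 0.000693 in edgeR) before correction and by -0.09 (adjusted p = 0.265, not past the threshold) after it. ITGB2-AS1 on the opposite strand covers part of its exons (4.46% of bases shared), and whether reads were counted by strand is not given in the sources used here.

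**Figure D2:**
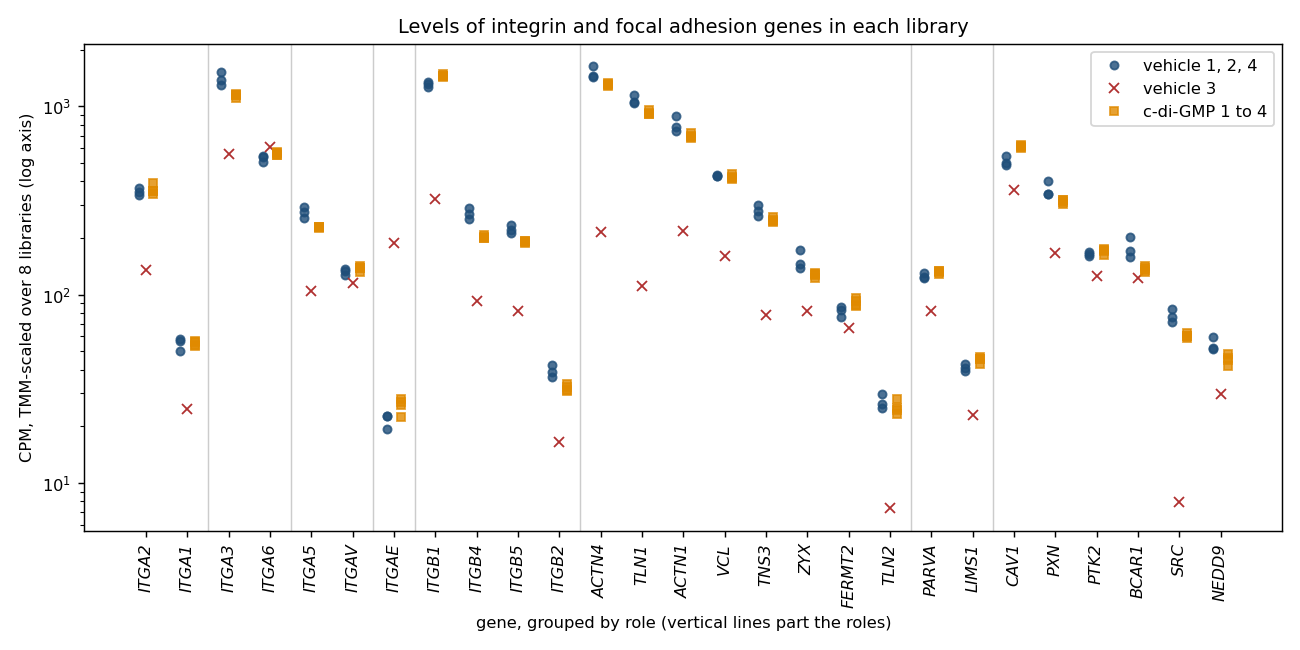
Level of 27 integrin and focal adhesion genes in each library, in TMM-scaled CPM on a log axis, by role. Circles are vehicle 1, 2 and 4, squares c-di-GMP 1 to 4 and crosses vehicle 3; the crosses lie under the other points for every gene of the 27 but ITGAE and ITGA6, where they lie over them.

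Since alpha and beta subunits pair, their makeup was computed from FPKM within each library, without a test and without GC correction. ITGB1 made up 71.0, 74.6 and 73.2% of the summed beta-subunit FPKM in vehicle 1, 2 and 4 and 78.6, 78.6, 78.8 and 79.2% with c-di-GMP, means of 72.9% ± 1.84 (SD, n = 3) and 78.8% ± 0.257 (SD, n = 4). ITGB4 went from 13.3% ± 1.07 to 9.74% ± 0.222 and ITGB5 from 11.5% ± 0.640 to 9.64% ± 0.108 in the same libraries. ITGB1 thus had the larger share in every treated library, and its transcript is the lowest in GC content of the 4 beta subunits above 20 CPM. Among alpha subunits, ITGA3 held 46.1, 41.8 and 42.3% in vehicle and 39.2, 38.3, 38.6 and 37.8% with c-di-GMP. ITGA6 held 23.0, 26.0 and 25.1% against 27.9, 27.7, 28.7 and 28.8%. Vehicle 3 lay outside both groups, with 25.2% from ITGA3, 41.5% from ITGA6, 12.6% from ITGAE and 64.8% of the beta subunits from ITGB1.

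**Figure D3:**
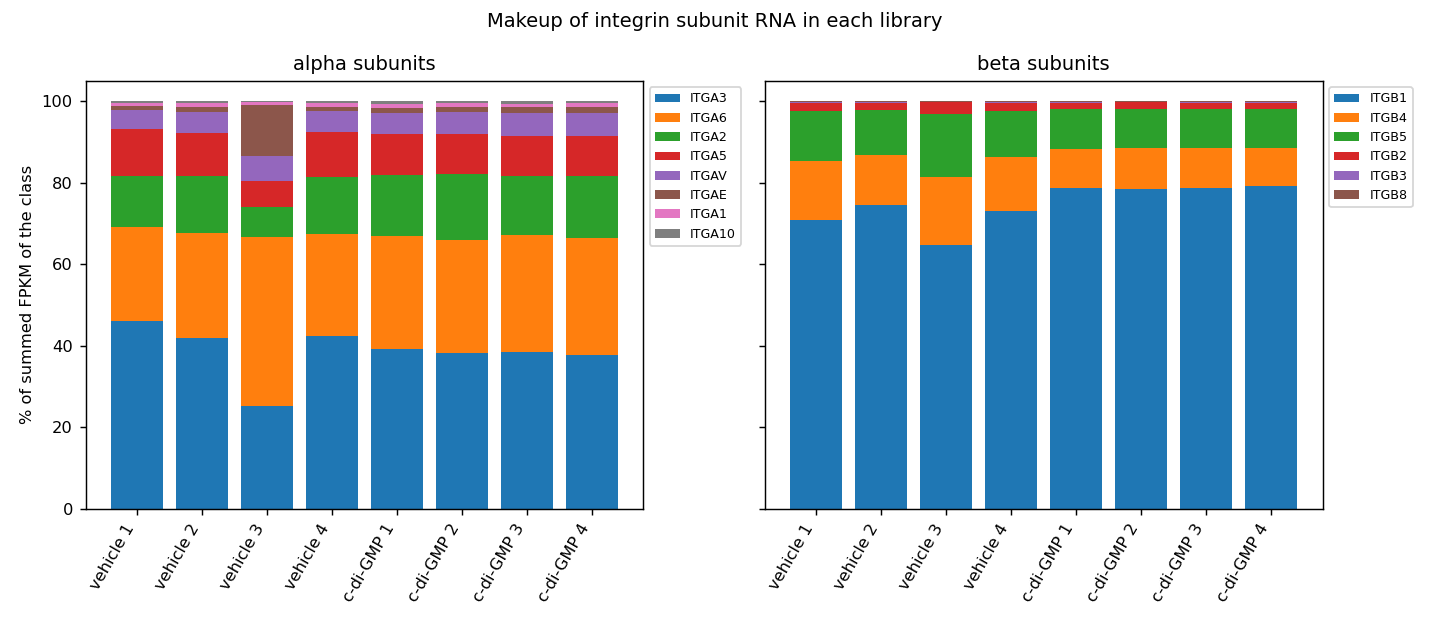
Makeup of integrin alpha-subunit (left) and beta-subunit (right) RNA in each library, as percent of the summed FPKM of the class. ITGB1 fills 78.6 to 79.2% of the beta bars with c-di-GMP and 71.0 to 74.6% in vehicle 1, 2 and 4, and ITGAE fills 12.6% of the alpha bar of vehicle 3.

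The actin linkers and integrin activators comprise 9 of the genes. Before correction 5 of them fell (TLN1, ACTN1, ACTN4, TNS3 and ZYX) and FERMT2 rose, and with the GC trend taken out ACTN1 alone was called. ACTN1, an alpha-actinin that crosslinks actin at adhesions and along stress fibres, was at 884.9, 744.1 and 772.9 CPM in vehicle and at 689.1, 720.5, 696.8 and 676.2 CPM after c-di-GMP. Its highest treated library was below its lowest vehicle library of these 3, while vehicle 3 was at 219.1 CPM. The fold change was -0.21 (SE 0.05, adjusted p = 0.00254 in edgeR) before and -0.20 (SE 0.04, adjusted p = 0.00145) after correction.

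Its paralogue ACTN4 was at 1636, 1425 and 1443 CPM in vehicle and 1315, 1323, 1296 and 1279 CPM after c-di-GMP, and the groups did not overlap. It changed by -0.21 (SE 0.05, adjusted p = 0.00138 in edgeR) before correction and by -0.03 (SE 0.03, adjusted p = 0.562) after it. Exons of CAPN12 on the opposite strand share 14.2% of its bases, so that part of its level is uncertain. TLN1, the talin that binds the beta tail, was at 1151, 1042 and 1057 CPM in vehicle and at 923.2, 960.7, 909.5 and 913.9 CPM after c-di-GMP. Here too the groups were apart, with fold changes of -0.23 (SE 0.04, adjusted p = 0.000318 in edgeR) and -0.08 (SE 0.03, adjusted p = 0.114) after correction. Without c-di-GMP 2 the corrected value of TLN1 passed (-0.0985, adjusted p = 0.0214 in edgeR). TLN2, the second talin, was much lower at 29.7, 25.1 and 26.4 against 23.3, 28.0, 25.1 and 24.3 CPM, and its groups overlapped (-0.11, 95% interval -0.25 to 0.04).

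ZYX, a LIM protein of mature adhesions, was at 173.1, 138.9 and 146.1 CPM in vehicle and 128, 130.9, 122.6 and 127.4 CPM after c-di-GMP. Vehicle 1 was the highest by far, and the groups did not overlap. The fold change turned from -0.27 (SE 0.06, adjusted p = 0.00084 in edgeR) to 0.08 (SE 0.04, adjusted p = 0.161) when the GC trend was taken out; at 64.9% its transcript is the richest in GC of the 33. TNS3, a tensin that binds beta tails, was at 299.3, 261.9 and 278.6 against 247.1, 259.7, 243.3 and 248.1 CPM. Its groups were only just apart, and it changed by -0.17 (SE 0.05, adjusted p = 0.00664 in edgeR) before and by -0.06 (adjusted p = 0.281) after correction. FERMT2, the kindlin that activates integrins together with talin, was at 76.3, 82.4 and 85.9 CPM in vehicle and at 95.8, 92.1, 88.5 and 87.3 CPM after c-di-GMP. It rose by 0.15 (SE 0.05, adjusted p = 0.0206 in edgeR) before correction and was at 0.02 (adjusted p = 0.825) after it. The call was lost without vehicle 1 (0.11, adjusted p = 0.0826) or c-di-GMP 1 (0.12, adjusted p = 0.109).

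VCL, encoding vinculin, did not pass in either fit. It was at 425.2, 425.6 and 430.6 CPM in vehicle and 418.7, 439.9, 413.8 and 423.7 CPM after c-di-GMP. The vehicle values lay inside the treated range, and the difference was -0.01 with a 95% interval of -0.09 to 0.06. With the GC trend taken out it was -0.08 (adjusted p = 0.0879 in edgeR, interval -0.14 to -0.02), and it passed there when c-di-GMP 2 was left out (adjusted p = 0.0258). In vehicle 3 VCL was at 161.2 CPM. Exons of AP3M1 on the opposite strand share 11.1% of the exon bases of VCL, so that part of its level is uncertain.

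None of the ILK, PINCH and parvin genes, whose products form a complex on the beta tail, passed the threshold in either fit. LIMS1, which encodes PINCH, was at 39.1, 40.6 and 42.9 against 45.6, 45.6, 42.7 and 46.8 CPM, and the lowest treated library lay under the highest vehicle library. Its difference was 0.14 (SE 0.06, adjusted p = 0.0647 in edgeR, 95% interval 0.03 to 0.25). It passed when c-di-GMP 3 was left out (adjusted p = 0.0483). With the GC trend taken out the difference was 0.03 (adjusted p = 0.747 in edgeR, interval -0.07 to 0.13). PARVA, the parvin, was at 123.8, 130.8 and 122 against 128.6, 132.6, 134.2 and 134.1 CPM, a difference of 0.07 with an interval of -0.01 to 0.16. ILK itself had 4.48 to 5.11 CPM in vehicle and 4.39 to 6.12 CPM after c-di-GMP, but 78.5% of its exon bases are shared with other genes, mainly TAF10 on the opposite strand, and its level is uncertain.

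**Figure D4:**
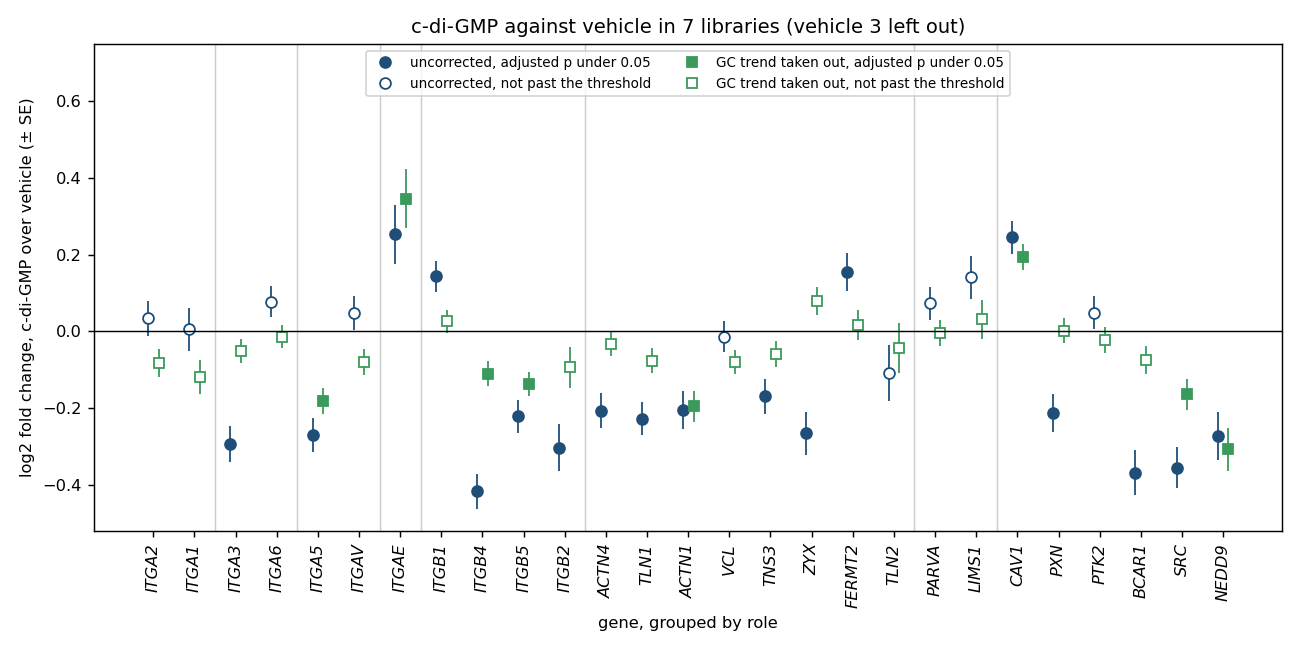
Log2 fold change (c-di-GMP over vehicle, 7 libraries) with its SE for 27 genes by role, uncorrected (circles) and with the GC trend taken out (squares); filled symbols passed an adjusted p of 0.05. The squares of ITGB4, ITGA3 and ZYX lie nearer to or above 0 than their circles, while those of NEDD9, ACTN1 and CAV1 stay near them.

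Of the 6 kinase and adaptor genes, NEDD9 and SRC fell and CAV1 rose in both fits, BCAR1 and PXN fell before correction only, and PTK2 passed in neither. CAV1, the caveolin that coats caveolae and is a substrate of Src, was at 490.5, 547.5 and 502.9 CPM in vehicle and at 623.8, 612.2, 598.4 and 607 CPM after c-di-GMP. All treated libraries lay above all of these vehicle libraries, and vehicle 3 was lowest at 357.9 CPM. It rose by 0.25 (SE 0.04, adjusted p = 0.000124 in edgeR) and by 0.20 (SE 0.03, adjusted p = 0.000227) with the GC trend taken out. With vehicle 3 in the fit the value was 0.36 (SE 0.15, adjusted p = 0.623).

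NEDD9, a scaffold of the p130Cas family, was at 59.7, 51.8 and 51.7 CPM in vehicle and at 45.9, 48.2, 41.6 and 44.7 CPM after c-di-GMP, without overlap. Its fold change was -0.27 (SE 0.06, adjusted p = 0.00164 in edgeR) and, with 47.3% GC in its transcript, -0.31 (SE 0.06, adjusted p = 0.000444) after correction. BCAR1, which encodes p130Cas itself, was at 202.2, 157.6 and 169.6 against 142.5, 135.5, 138 and 131.9 CPM. The groups did not overlap, and it changed by -0.37 (SE 0.06, adjusted p = 4.41e-05 in edgeR) before and by -0.07 (SE 0.04, adjusted p = 0.196) after correction. Without vehicle 2 the corrected value of BCAR1 passed (-0.11, adjusted p = 0.0487 in edgeR). Of the exon bases of BCAR1, 8.71% are shared with AC009078.3 on the same strand and AC009078.2 on the opposite strand. SRC, the tyrosine kinase that phosphorylates both scaffolds, was at 84.2, 71.8 and 76.1 CPM in vehicle and at 62.8, 58.6, 60.6 and 60.3 CPM after c-di-GMP, again without overlap. It changed by -0.36 (SE 0.05, adjusted p = 2.38e-05 in edgeR) and by -0.16 (SE 0.04, adjusted p = 0.00568) after correction.

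PXN, the paxillin gene, was at 402.1, 340.9 and 343.9 against 317.9, 319.7, 311.8 and 303.7 CPM, and its groups were apart. Its value went from -0.21 (SE 0.05, adjusted p = 0.00195 in edgeR) to 0.0020 (SE 0.03, adjusted p = 0.977) with the GC trend taken out, and 12.4% of its exon bases are shared with PXN-AS1 and another antisense gene. PTK2, which encodes focal adhesion kinase, was at 164.6, 159.5 and 169.1 CPM in vehicle and at 162.7, 173.7, 170.8 and 174.5 CPM after c-di-GMP. Those ranges overlapped, and the difference was 0.05 with a 95% interval of -0.04 to 0.13.

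The remaining integrin and adhesion genes, ITGA7, ITGA10, ITGB3, ITGB8, ILK and TNS1, stood between 0.468 and 10.1 CPM in the 7 libraries and none passed in either fit. ITGB3, the beta 3 chain of the classical vitronectin receptor, had 2.19 to 2.96 CPM in vehicle and 1.58 to 2.68 CPM after c-di-GMP, and shares 51.6% of its exon bases with AC068234.1 on the same strand. ITGA7, a laminin-binding chain known from muscle, had 1.25 to 1.83 against 0.468 to 1.202 CPM. Its groups did not overlap, and the difference of -0.69 (SE 0.29) had an adjusted p of 0.0703 in edgeR.

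In all 14 genes that fell, vehicle 1 was the highest of the 7 libraries, an order not counted over all genes that fell. Without vehicle 1 all 14 still passed. Their values were nearer to 0 then, among them BCAR1 (from -0.37 to -0.26) and ZYX (from -0.27 to -0.17). PXN and ACTN1 each went from -0.21 to -0.13, and the corrected value of ACTN1 went to -0.12. On the log2(FPKM + 1) scale limma did not call 5 of the 18 genes in the 7 libraries: ACTN1 (adjusted p = 0.061), PXN (0.0565), TNS3 (0.0648), FERMT2 (0.0543) and ITGAE (0.0769). The 8 genes called in both fits were placed on GRCh38 by GENCODE v29, where ITGA5 spans chr12:54395261-54419460 (minus strand), ITGB4 chr17:75721328-75757818 (plus strand), ITGAE chr17:3714628-3801243 (minus strand), ITGB5 chr3:124761948-124901418 (minus strand), ACTN1 chr14:68874143-68979440 (minus strand), SRC chr20:37344685-37406050 (plus strand), NEDD9 chr6:11183298-11382348 (minus strand) and CAV1 chr7:116524785-116561184 (plus strand).

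Vehicle 3 was below the other 7 libraries in 30 of the 33 genes and above them in ITGAE and ITGA6, with ITGA7 inside. Of all genes, 45.8% were below and 41.6% above in that library, and of the highest quartile of length, to which 19 of the 33 belong, 64.7% were below. With library totals in place of TMM it was below in 31 of the 33 and above in ITGAE alone, and in 62.9% of all genes below. The median log2 ratio of vehicle 3 to the other vehicle libraries was -1.38 over the 33 genes and -0.10 over all genes. TLN1 was 9.76 times lower in vehicle 3 (111.0 against 1042 to 1151 CPM), SRC 9.73 times (7.95 against 71.8 to 84.2 CPM), ACTN4 7.00 times and ITGB1 4.10 times. By contrast ITGAV was 1.15 times and FERMT2 1.23 times lower. Of the 14 genes that fell without vehicle 3, 6 had a positive fold change with it (ACTN4 0.14, TLN1 0.14, ACTN1 0.09, TNS3 0.12, ITGB5 0.03 and SRC 0.01), and of the 4 that rose, ITGAE had a negative one. Why this library differs was not tested.

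**Figure D5:**
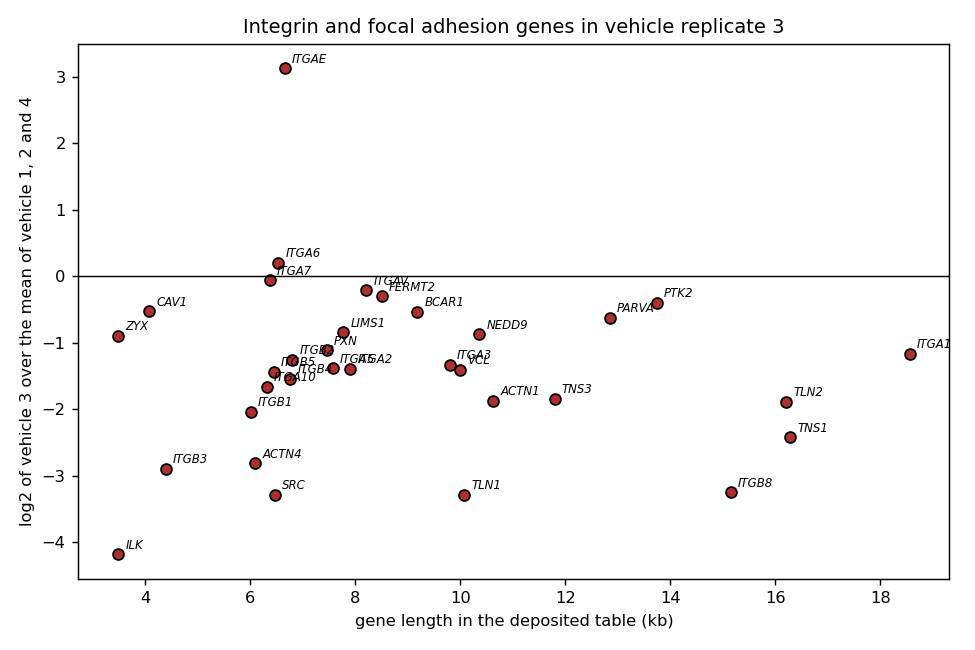
Log2 ratio of vehicle 3 to the mean of vehicle 1, 2 and 4 (CPM) against gene length in the deposited table, in kb, for the 33 genes. Of these, 30 lie below all other libraries, ITGAE is far above 0, and the points of ILK and TNS1 rest on 3 and 2 counts in vehicle 3.

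Around these genes, 4 further lists of adhesion genes held 99 genes that were tested. Without correction 11 of the 99 rose and 32 fell, beside 13.5% and 16.2% of all genes tested, and with the GC trend taken out 11 rose and 16 fell, beside 8.58% and 6.62%. Among all genes of at least 20 CPM, 23.2% rose and 22.2% fell without correction, and 15.2% rose and 10.1% fell with the GC trend taken out. How many of the 99 reach that level was not counted. The same shares apply to each list below. Of the 99 genes, 5 rises and 10 falls were called in both fits. The median of the 99 was -0.06 and -0.03.

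Of 32 other scaffold genes, 4 rose and 13 fell before correction and 1 rose and 7 fell after it (medians -0.13 and -0.05). VASP, which promotes actin elongation at adhesions, was at 163.7, 147.9 and 148.1 CPM in vehicle and at 115.7, 115.9, 117.3 and 113.8 CPM after c-di-GMP. It fell by 0.41 (adjusted p = 4.87e-07 in edgeR) and by 0.21 (adjusted p = 4.15e-05) after correction, and vehicle 3 was above both groups at 390.8 CPM. FLNC, a filamin that crosslinks actin, was at 571.7, 456.8 and 504.4 against 367.7, 392.5, 355.1 and 366.2 CPM and fell by 0.47 and 0.20 in the same fits. FLNA, its abundant paralogue, fell by 0.36 before correction and was at -0.09 (adjusted p = 0.095 in edgeR) after it. NEXN, RAP1B, ITGB1BP1 and TES rose by 0.16 to 0.28 before correction, and none of these 4 passed after it. Without c-di-GMP 3, ITGB1BP1 (adjusted p = 0.062) and TES (adjusted p = 0.0556) did not pass in edgeR before correction either.

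Of 29 other signalling genes, 3 rose and 4 fell before and 2 rose and 1 fell after correction (medians 0.01 and -0.03). The GTPases RHOA and RAC1, which set contractility and protrusion, rose in both fits. RHOA was at 484.4, 506.9 and 506.8 CPM in vehicle and 573, 554.3, 602.9 and 584.5 CPM after c-di-GMP, a rise of 0.21 (adjusted p = 0.000453 in edgeR) and 0.18 after correction (adjusted p = 0.000458). RAC1 rose by 0.23 (adjusted p = 0.000378 in edgeR) and 0.16 (adjusted p = 0.00262). In vehicle 3 both were above all other libraries, at 1007 and 729.8 CPM. CSK, the kinase that restrains Src, fell by 0.29 before correction and was at 0.01 after it (adjusted p = 0.845 in edgeR).

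Of 20 integrin ligands, 1 rose and 9 fell before correction (16.2% of all genes fell) and 1 rose and 7 fell after it (6.62% fell), with medians of -0.14 and -0.06 and 4 of the falls in both. LAMA5, a chain of the laminins that alpha 3 and alpha 6 integrins bind, was at 977.1, 807.9 and 818.9 CPM in vehicle and 592.6, 595.8, 550.7 and 552.3 CPM after c-di-GMP. It fell by 0.60 (adjusted p = 3.03e-08 in edgeR) and by 0.22 (adjusted p = 0.000144) after correction. THBS1, thrombospondin, fell by 0.22 and 0.28 in those fits and CTGF, a matricellular ligand, rose by 0.11 and 0.15. The uncorrected call of CTGF (adjusted p = 0.0458 in edgeR) was lost on leaving out any 1 of vehicle 2, vehicle 4 and c-di-GMP 1, 3 and 4, with adjusted p of 0.0898 to 0.217. Of 18 membrane partners, 3 rose and 6 fell before and 7 rose and 1 fell after correction (medians -0.02 and 0.06). CD82, a tetraspanin known to restrain integrins, fell by 0.38 (adjusted p = 6.32e-07 in edgeR) and 0.20 (adjusted p = 9.81e-05), at 185.1, 170.8 and 176 CPM in vehicle and 139.6, 135.5, 137.6 and 131.9 CPM after c-di-GMP. SDC4, a syndecan that acts beside integrins on fibronectin, rose by 0.15 and 0.14, and the tetraspanin CD63 by 0.17 and 0.26, the first of which did not pass without vehicle 4 (adjusted p = 0.0538).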

How the data were processed

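The read counts per gene and the FPKM values were made and deposited by the authors as 2 tables of 16383 genes, 14707 of them in both, with a lowest total of 55 counts in the count table. The submitters' processing notes name DESeq2 1.20.0, featureCounts 1.5.0-p3, HISAT2 2.0.5, fastp and CASAVA 1.8, without saying how each was used, and a mouse build. The tables hold human genes, and all 16383 coordinates equal GENCODE v29 on GRCh38. The library kit was NEBNext Ultra RNA per the labels' protocols, and the use of strand in counting is not given in the sources used here. For 22 genes whose names had become dates, names were restored by gene identifier.

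Counts were tested with edgeR 4.0.16 in R 4.3.3 (filterByExpr, minimum count 10 and total 15, TMM, quasi-likelihood F test, treatment only, two-sided). SEs were computed from the F statistic, and 95% intervals as 1.96 SE. FPKM, which allows levels of different genes to be compared, was used for the makeup of subunits and for limma 3.58.1 on log2(FPKM + 1). The GC trend was a lowess curve (span 0.3) of each library's log2 CPM deviation (prior count 2) on the GC content of a gene's longest transcript, entered as an offset. The further trend on gene length was made the same way.

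The genes, lists, the 7-library comparison and the GC correction were chosen with earlier results of these data known. For integrin and focal adhesion genes of at least 20 CPM, or past the threshold with at least 1 CPM, the text gives values in each of the 7 libraries. The value in vehicle 3 is given in the text for only some of these genes. Of each further list, up to 4 genes with the smallest p in each direction were picked. Only some of the picked genes are named, and values in each library are given for only some of those named. In simulated counts for 15647 genes and 7 libraries, with 50 genes changed at each fold, 66% were recovered at 1.3-fold, 80% at 1.5-fold and 96% at 4-fold, with 3 unchanged genes called. With all 8 libraries (15415 genes) those shares were 0%, 0% and 82%. The simulated counts held no GC trend and no library unlike the rest. These figures therefore do not describe errors that such features of the real libraries may cause. Alternatives were each library left out, a replicate block, DESeq2 1.42.0, limma-voom, FPKM and other scalings and filters.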

Additional observations from a re-analysis of the deposited data

Results flagged for a closer look

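In groups of 4 libraries, a value was marked where its gap to the nearest other library as a share of the group's range exceeded Dixon's 95% critical value. Chance marks about 1 in 20 groups, and 11 of 66 were marked, all of them vehicle groups in which vehicle 3 was the extreme library and none of them c-di-GMP groups. Vehicle 3 was lowest for ITGB1 (320.5 CPM), ACTN4 (214.5 CPM), TLN1 (111 CPM), VCL (161.2 CPM), ITGA2 (134.5 CPM), TNS3 (78 CPM), ITGB5 (82.11 CPM), SRC (7.952 CPM), ITGB8 (0.6254 CPM) and ILK (0.268 CPM, which is 3 counts). It was highest for ITGAE, at 188.9 CPM. These marks share 1 library and are not independent of each other.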

How the results depend on the processing

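With 8 libraries 0 genes were called in every fit but DESeq2 (122) and the fit without vehicle 3; leaving out 1 library gave 0 to 4633 genes and 0 to 18 integrin and focal adhesion genes. With 7 libraries, 4633 genes were called, and 2378 with the GC trend taken out, 2097 with GC and length taken out and 1629 with a replicate block and GC. Of the 33 genes, 4 rose: 2 on log2(FPKM + 1), 2 on log2(FPKM + 0.1), 2 with GC, 2 with GC and length and 2 with the block and GC, and 2 to 4 on leaving out 1 library. The 14 falls became 6, 6 and 5 under those 3 corrections, and 14 to 15 on leaving out 1 library. The 32 falls in the further lists became 16, 10 and 9. With the GC trend taken out, leaving out 1 library gave 2 rises throughout and 5 to 9 falls.

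The sign turned under GC, GC and length, and block with GC for PXN (0.002, 0.0317 and 0.0106), ZYX (0.0796, 0.0518 and 0.1033), CSK (0.0149, 0.0106 and 0.0245), GIT1 (0.0405, 0.049 and 0.0321) and TGFB1 (0.0461, 0.0111 and 0.0415), and under the first and the third for EPHA2 (0.0046 and 0.0044). None of these values passed, and the cause was not tested. ITGA1, ITGA2 and ITGAV went from above to below 0 in the same 3 fits, to -0.12, -0.08 and -0.08 with GC alone, and passed in none of them. ITGA6, PTK2 and PARVA did so under the first and the third. Over fits that left out 1 of the 8 libraries, log2 fold changes ranged from -0.2074 to 0.3431 for ACTN4, -0.2285 to 0.3312 for TLN1, -0.2062 to 0.2658 for ACTN1, -0.169 to 0.2756 for TNS3, -0.2223 to 0.1527 for ITGB5, -0.3561 to 0.2199 for SRC and -1.5915 to 0.253 for ITGAE, with the turned sign without vehicle 3. These ranges also crossed 0 for ITGA3 (-0.2945 to 0.0859), ITGA5 (-0.2703 to 0.107), ITGA6 (-0.009 to 0.0776) and ITGB2 (-0.3033 to 0.0582). The same held for NEDD9 (-0.2736 to 0.0223), PXN (-0.2133 to 0.1417) and ZYX (-0.2664 to 0.0568). It also held for TLN2 (-0.1078 to 0.3557) and VCL (-0.0138 to 0.3303). In 8 libraries the median of all genes was -0.05 with TMM and 0.08 with library totals.

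Same-numbered libraries did not deviate together in the 7 libraries (correlations of 0.015, -0.0089 and 0.0055), and not every library correlated best with its own number. A replicate block, which left out the unpaired c-di-GMP 3, gave 4088 of 15523 genes, with 4 rises and 14 falls among the 33: ITGAE lost its call (0.21, adjusted p = 0.0505 in edgeR) and LIMS1 gained one (0.17, adjusted p = 0.0499). With the block and GC, ITGB4 was the fall lost (-0.11, adjusted p = 0.0803). Depth limits ITGA7, ITGB3, ITGB8, ILK and TNS1, since 3 counts were worth 0.166 to 0.186 CPM by library totals. On the TMM scale of the levels, 3 counts of ILK in vehicle 3 were 0.268 CPM.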
